A study of Mus musculus with 22 samples.

Results

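Serum amyloid A, lipocalin 2, lactoferrin and calprotectin are secreted defence proteins that rise in inflamed or microbe-exposed tissue. Their 7 genes (Saa1, Saa2, Saa3, Lcn2, Ltf, S100a8 and S100a9) were described in 22 RNA sequencing libraries of mouse intestinal tissue. They were picked by gene symbol out of the 46603 genes of the deposited tables, and all 7 were found. The list was drawn up with earlier results of these data known, so the values below describe where these genes stood and are not independent support for a pattern. Every mouse was a male C57BL/6 animal of genotype WT, 7 weeks old at the start, and was kept for 7 weeks on a diet whose weight was 8% fibre. Fat gave 35% of the calories, carbohydrate 45% and protein 20%. The Control group (n = 4) ate cellulose, a poorly fermented fibre, the Inulin group (n = 3) ate inulin, a fermentable fructan, and the Pectin group (n = 4) ate pectin, a fermentable galacturonan. The groups PFOS (n = 4, cellulose), Inulin_PFOS (n = 3) and Pectin_PFOS (n = 4) are the same diets combined with perfluorooctanesulfonic acid, a persistent fluorinated surfactant, given daily in the drinking water at 3 µg for each kg of body weight. A treatment label of every library mentions PFOS, and the group was read from the library's own title. The titles call the replicates biological, and the labels do not say whether each is 1 mouse, nor which gut segment was taken.

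The serum amyloid A proteins are small lipid-binding proteins made in bulk by the liver in the acute phase response, and by the epithelium of the distal gut in response to attached bacteria and interleukin 22. Lipocalin 2 binds the siderophores with which bacteria collect iron, and lactoferrin binds iron itself. S100a8 and S100a9 encode the subunits of calprotectin, which binds zinc, manganese and iron and is stored in bulk in neutrophils, as lactoferrin and part of lipocalin 2 are.

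The promoter sequences of the 4 genes whose levels separated groups most are given first, because their letters show how alike Saa1 and Saa2 are. Each is the stretch from 250 to 51 bases before the RefSeq start site on build GRCm38.p6, read along the gene's own strand. Capitals mark matches to TTNNGNAA, a loose core of the sites bound by C/EBP factors, searched on both strands. The windows lie at chr7:46743031-46743230 (minus strand) for Saa1, chr7:46751583-46751782 (plus strand) for Saa2, chr7:46715727-46715926 (minus strand) for Saa3 and chr9:111019042-111019241 (plus strand) for Ltf.
Saa1: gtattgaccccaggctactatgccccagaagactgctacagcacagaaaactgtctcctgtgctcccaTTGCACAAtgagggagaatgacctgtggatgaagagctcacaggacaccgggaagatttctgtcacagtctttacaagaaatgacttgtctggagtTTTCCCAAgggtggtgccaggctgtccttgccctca
Saa2: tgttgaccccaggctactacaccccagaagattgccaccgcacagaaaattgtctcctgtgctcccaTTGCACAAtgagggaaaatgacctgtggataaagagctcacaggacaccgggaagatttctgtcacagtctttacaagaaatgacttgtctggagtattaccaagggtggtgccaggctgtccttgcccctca
Saa3: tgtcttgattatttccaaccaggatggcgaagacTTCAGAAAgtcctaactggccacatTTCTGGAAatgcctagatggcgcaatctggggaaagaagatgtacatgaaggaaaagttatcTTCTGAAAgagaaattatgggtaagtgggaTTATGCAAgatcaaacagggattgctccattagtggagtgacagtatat
Ltf: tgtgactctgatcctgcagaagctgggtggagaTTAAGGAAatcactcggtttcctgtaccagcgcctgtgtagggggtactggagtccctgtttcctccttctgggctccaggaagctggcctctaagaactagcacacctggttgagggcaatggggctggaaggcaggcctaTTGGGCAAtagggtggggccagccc
The Saa1 and Saa2 windows were identical at 188 of 201 aligned positions (93.5%), against 49.1% for Saa1 and Saa3. All 7 windows held the C/EBP letters, 4 times in Saa3, 2 times in Saa1, Ltf and S100a9, and 1 time in Saa2, Lcn2 and S100a8. The same letters occur in 32.3% of the 32851 RefSeq promoter windows of this length. None of the 7 windows held GGGNNTTCC, a loose NF-kB core found in 3.73% of all windows, or TTCNNNGAA, a STAT core found in 5.76%. A match is a description of the letters and not a bound site.

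The serum amyloid A genes lie together on chromosome 7 of GRCm38, the build that the coordinates of the deposited tables match. Saa3 spans 46711998 to 46715676 on the minus strand, Saa1 spans 46740501 to 46742980 on the minus strand and Saa2 spans 46751833 to 46754314 on the plus strand. The calprotectin genes are neighbours on chromosome 3, with S100a8 at 90668978 to 90670035 (plus strand) and S100a9 at 90692632 to 90695721 (minus strand). Lcn2 lies on chromosome 2 at 32384633 to 32388252 (minus strand) and Ltf on chromosome 9 at 111019271 to 111042767 (plus strand). None of the 7 overlaps another annotated gene.

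The libraries held 17613322 to 20261370 counts each. The ileal bile acid binding gene Fabp6 averaged 13271 TPM (abundance scaled for gene length and library size) and was at least 5074 TPM in every library, and the summed level of 9 colon markers was 198 to 1073 TPM, with Prdx6b at 0 throughout. Summed levels ranged over the libraries from 10528 to 82899 TPM for enterocyte markers, 13966 to 32941 for goblet, 4120 to 33278 for Paneth, 118 to 4655 for T and B cell, 47.2 to 429 for macrophage, 321 to 4085 for fibroblast and muscle, 67.0 to 2037 for fat and 7.54 to 151 for hepatocyte markers. Mitochondrial genes took 2.85% to 14.9% of the counts, and no 2 libraries of a group were alike within counting noise. Pectin_PFOS replicate 1 had the fewest genes with at least 10 counts (12919). In tissue libraries, fewer cells of a type and less RNA per cell cannot be told apart. Of the 7 genes, 5 passed the low-count filter of the fit across 15763 genes, and S100a8 and S100a9 did not, so these last are described mainly by their counts.

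Saa1 was by far the most abundant of the 7 genes and one of the most variable in the gut. Its level averaged 3471 TPM, rank 31 of the 46603 genes of the deposited tables. The standard deviation of its log2 CPM (counts scaled for library size) ranked 4 of the 15763 genes tested. On the cellulose diet with PFOS the 4 libraries held 32.39, 44.4, 111.47 and 514.71 TPM, the lowest group. With inulin and PFOS the 3 libraries held 8811.16, 8827.24 and 9327.1 TPM, the highest group, above every other library of the study. Pectin_PFOS followed with 2557.22, 4944.91, 5471.95 and 7984.71 TPM.

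Without PFOS, Saa1 was at 1502.79, 3036.54, 5146.56 and 5192 TPM in the Pectin libraries. The Control libraries spread over 51.3, 126.29, 1288.42 and 4133.48 TPM, and the Inulin libraries over 272.77, 747.04 and 6229.58 TPM. In CPM the highest Control library was 102-fold above the lowest, and the highest Inulin library 23.5-fold, against 1.19-fold in Inulin_PFOS. In the order of medians, Inulin_PFOS did not overlap Pectin_PFOS in TPM, and each of the other neighbours (Pectin_PFOS and Pectin, Pectin and Inulin, Inulin and Control, Control and PFOS) overlapped.

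Saa1 rose in both fermentable-fibre diets compared with cellulose under PFOS. Mean levels were 3480 ± 324 CPM in Inulin_PFOS (SD, n = 3) and 47.6 ± 63.4 CPM in PFOS (SD, n = 4), a log2 difference of 6.19 ± 1.38 (SE), or 73.1-fold (edgeR, adjusted p = 0.0230). Pectin_PFOS held 1808 ± 786 CPM (SD, n = 4), a log2 difference from PFOS of 5.25 ± 1.30 (edgeR, adjusted p = 0.0128), and in neither comparison did the groups overlap. Of all genes tested, 12.4% in Inulin_PFOS and 12% in Pectin_PFOS were likewise above PFOS without overlap in CPM. Both comparisons share the PFOS libraries. Colon markers summed to 218 to 394 TPM in PFOS, 512 to 1073 in Inulin_PFOS and 594 to 878 in Pectin_PFOS, with Prdx6b at 0, and T and B cell markers to 404 to 760, 1212 to 1961 and 273 to 1669 TPM. The colon markers highest on average over all libraries were Car4 (249 TPM) and Sprr2a3 (149 TPM). Hepatocyte markers summed to 16.7 to 69.8, 53.6 to 79.8 and 19.5 to 45.9 TPM. In each comparison 2 of 6 colon, 1 of 9 T and B cell and 1 of 6 hepatocyte markers tested were higher and none lower. Goblet markers summed to 15564 to 23501, 17303 to 32941 and 18525 to 22922 TPM. Among them, 3 of 7 were higher in Inulin_PFOS and 4 of 7 in Pectin_PFOS than in PFOS, beside 1.84% and 7.7% of all genes. Fibroblast and muscle markers summed to 1257 to 1801, 1031 to 3453 and 321 to 852 TPM. Among them, 3 of 9 were lower in Pectin_PFOS than in PFOS, beside 1313 of all 15763 genes. Mitochondrial genes took 4.26% to 9.16%, 3.95% to 7.90% and 2.85% to 3.51% of the counts, so Pectin_PFOS did not overlap PFOS. The part of these in the result was not tested. Without PFOS replicate 3, the highest of its group, the log2 differences were 7.75 and 6.84. The Inulin_PFOS call was lost without PFOS replicate 1, PFOS replicate 2, Inulin_PFOS replicate 1 or Inulin_PFOS replicate 3 (edgeR, adjusted p up to 0.0908 over all libraries left out in turn) and with no low-count filter (adjusted p = 0.0533), while the Pectin_PFOS call passed with each library left out.

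The other Saa1 differences did not pass the test. PFOS libraries averaged -3.33 ± 1.19 log2 against Control (edgeR, adjusted p = 0.822), with overlapping groups. Inulin_PFOS was 2.17 ± 1.31 log2 above Inulin without overlap (edgeR, adjusted p = 0.373), Pectin was 1.61 ± 1.11 above Control (adjusted p = 0.464), Inulin was 0.69 ± 1.16 above Control (adjusted p = 0.770), and Pectin_PFOS was 0.31 ± 1.09 above Pectin (adjusted p = 0.863). The Inulin against Control difference changed sign, to -1.39, without Inulin replicate 2, and Saa2 (-0.91) and Saa3 (-0.996) did the same.

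**Figure D1:**
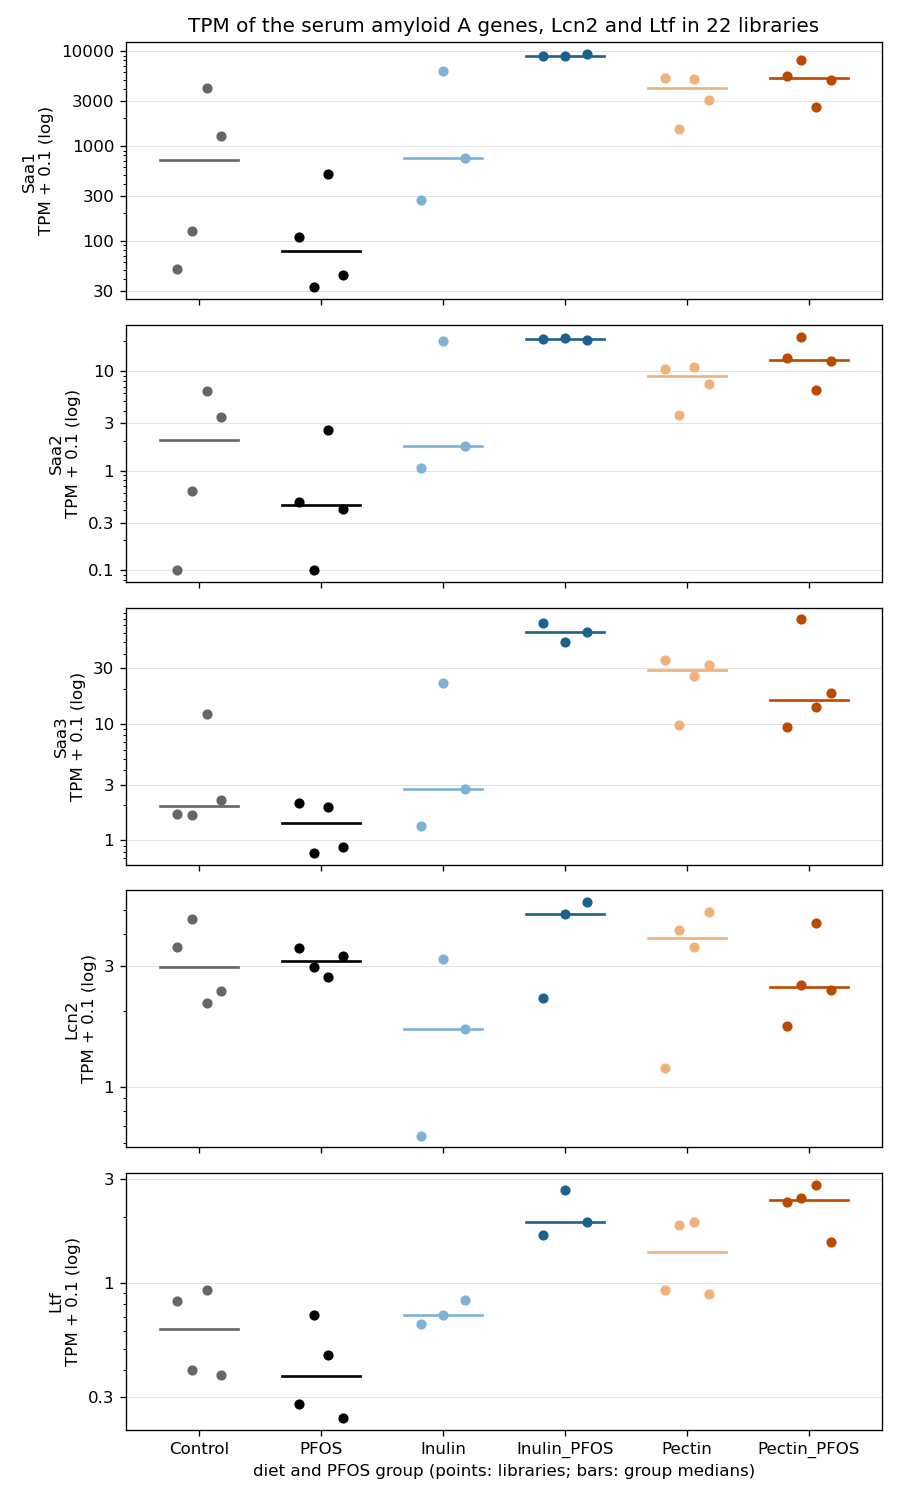
Levels of Saa1, Saa2, Saa3, Lcn2 and Ltf in each of 22 libraries, in TPM plus 0.1 on log axes, by diet and PFOS group; points are libraries and bars are group medians. The 3 serum amyloid A genes and Ltf are lowest by median in the PFOS group, the serum amyloid A genes are highest by median in Inulin_PFOS, and Control and Inulin libraries are widely spread for Saa1.

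Saa2, the other acute phase isoform, followed Saa1 at a small share of its counts. The 2 coding sequences are 369 bases each and 95.1% identical, with a longest identical run of 73 bases, and the sources used here do not state how reads were divided between such genes, so the Saa2 values are uncertain. Over all libraries Saa2 had 1235 counts against 506485 for Saa1. In the 16 libraries with at least 10 Saa2 counts there were 1.54 to 4.82 Saa2 counts per 1000 Saa1 counts (median 2.47). Saa2 TPM in the PFOS libraries was 0, 0.31, 0.39 and 2.45, and in the Inulin_PFOS libraries 20.55, 21.01 and 21.61. Pectin_PFOS libraries held 6.34, 12.53, 13.52 and 22.15 TPM, so both fibre groups stood clear of PFOS. In CPM, 12.4% (Inulin_PFOS) and 12% (Pectin_PFOS) of all genes tested were above PFOS without overlap.

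The Saa2 log2 difference from PFOS was 5.18 ± 1.12 in Inulin_PFOS (edgeR, adjusted p = 0.0190) and 4.39 ± 1.08 in Pectin_PFOS (edgeR, adjusted p = 0.0121). Without PFOS replicate 3 these were 6.88 and 6.12, and the Inulin_PFOS call was lost without the same 4 libraries as for Saa1 (PFOS replicates 1 and 2, Inulin_PFOS replicates 1 and 3). Counted as one row, Saa1 and Saa2 together were 6.19 ± 1.38 log2 above PFOS in Inulin_PFOS (edgeR, adjusted p = 0.0231) and 5.24 ± 1.30 in Pectin_PFOS (edgeR, adjusted p = 0.0128).

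**Figure D2:**
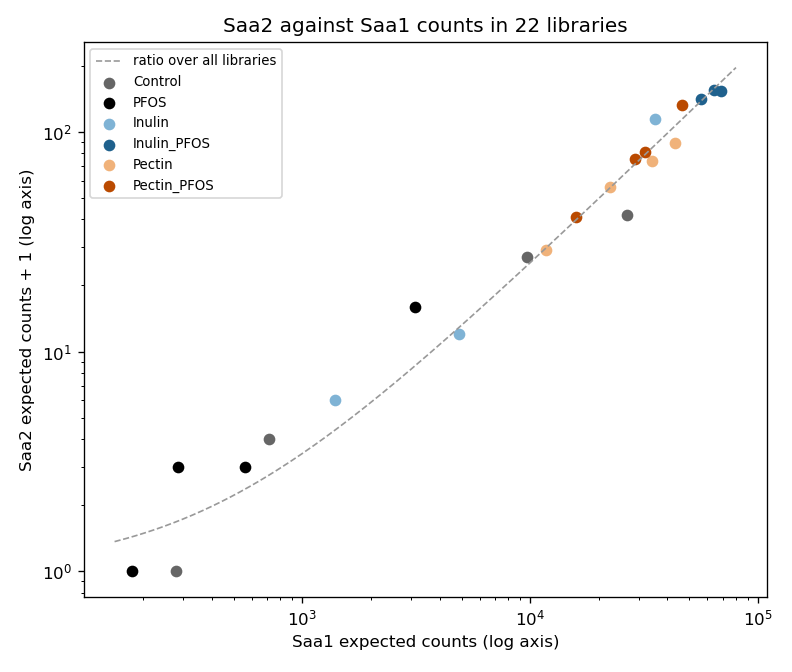
Expected counts of Saa2 plus 1 against those of Saa1 in each of 22 libraries, both on log axes and coloured by group; the dashed line is the ratio over all libraries. Saa2 increases with Saa1 along the line of 2.44 Saa2 counts per 1000 Saa1 counts, with libraries on both sides of it and Saa1 between 179 and 68536 counts.

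Saa3, the isoform also made widely outside the liver, was 75.9% identical to Saa1 in its coding sequence and is easier to tell apart. Its PFOS libraries held 0.68, 0.77, 1.84 and 1.97 TPM, and its Inulin_PFOS libraries 50.33, 60.86 and 73.36 TPM. Pectin_PFOS libraries held 9.31, 13.71, 18.34 and 78.48 TPM, the last being replicate 2, and Pectin libraries 9.69, 25.39, 32.1 and 35.12 TPM. In TPM, Inulin_PFOS lay above every Pectin, Inulin, Control and PFOS library, and only Pectin_PFOS replicate 2 was above it. Control held 1.54, 1.59, 2.13 and 11.94 TPM and Inulin 1.22, 2.68 and 22.27 TPM, and in each 1 library stood well above the rest.

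The PFOS libraries held only 3 to 9 Saa3 counts, which makes the size of a difference from them uncertain. Saa3 rose 67.4-fold in Inulin_PFOS over PFOS, a log2 difference of 6.07 ± 1.01 (edgeR, adjusted p = 0.00482). In Pectin_PFOS it was 4.82 ± 0.96 log2 above PFOS (edgeR, adjusted p = 0.00432), which fell to 3.69 without Pectin_PFOS replicate 2 and still passed (adjusted p = 0.0145). Both calls held with each library left out in turn. Pectin was 2.82 ± 0.83 log2 above Control (edgeR, adjusted p = 0.0787), and this passed (adjusted p = 0.0381) without Control replicate 3, the highest Control library. Inulin_PFOS stood 3.10 ± 0.95 above Inulin without overlap (edgeR, adjusted p = 0.125), and PFOS averaged -1.99 ± 0.97 against Control (adjusted p = 0.822). Between Pectin_PFOS and Pectin the log2 difference was 0.02 ± 0.75, and its sign changed between alternatives.

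Lcn2 did not follow the serum amyloid A genes. Its level was 2.61, 2.87, 3.2 and 3.43 TPM in the PFOS libraries, 2.14, 4.7 and 5.27 TPM in Inulin_PFOS and 1.64, 2.31, 2.43 and 4.33 TPM in Pectin_PFOS, and all pairs of groups overlapped. Controls held 2.05 to 4.51 TPM, Pectin 1.08 to 4.81 TPM and Inulin 0.54 to 3.1 TPM. Its log2 difference was 0.93 ± 0.46 for Inulin_PFOS against PFOS (edgeR, adjusted p = 0.256), and the one farthest from 0 among pairs of groups was 1.41 ± 0.51 for Inulin_PFOS against Inulin (edgeR, adjusted p = 0.164). Lcn2 counts were 5 to 70 per library, which limits what could be detected.

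Ltf, which encodes lactoferrin, was the least abundant of the 5 genes tested. In counts the PFOS libraries held 1, 2, 6 and 7, the Inulin_PFOS libraries 44, 68 and 73, and the Pectin_PFOS libraries 51, 72, 74 and 83. Both fibre groups under PFOS were thus clear of every library on cellulose, where Controls held 5, 6, 11 and 19 counts. Against PFOS alone, 12.4% (Inulin_PFOS) and 12% (Pectin_PFOS) of all genes tested were higher without overlap in CPM. Inulin libraries held 8, 11 and 14 counts and Pectin libraries 14, 29, 30 and 39. Mean CPM rose from 0.191 ± 0.143 in PFOS (SD, n = 4) to 3.42 ± 0.90 in Inulin_PFOS (SD, n = 3), a log2 difference of 4.13 ± 0.51 (edgeR, adjusted p = 0.000380). Pectin_PFOS reached 4.11 ± 1.04 CPM (SD, n = 4), 4.40 ± 0.50 log2 above PFOS (edgeR, adjusted p = 0.000135). Both calls held with each library left out in turn.

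Ltf was also the only one of the 5 tested genes called between Pectin_PFOS and Pectin, 1.53 ± 0.41 log2 higher with PFOS (edgeR, adjusted p = 0.0156). In the same comparison 3 of 10 enterocyte, 2 of 7 goblet and 1 of 6 ileum markers were higher, beside 11.4% of all genes. There 5 of 8 Paneth and 3 of 9 fibroblast and muscle markers were lower, beside 1487 of all 15763 genes. Also lower were 1 of 9 T and B cell, 1 of 9 macrophage and 1 of 7 fat markers. Summed levels in Pectin and Pectin_PFOS were 10528 to 65046 and 40313 to 64336 TPM for enterocyte, 17919 to 33278 and 6208 to 21338 TPM for Paneth, and 819 to 1850 and 321 to 852 TPM for fibroblast and muscle markers. T and B cell markers summed to 1725 to 4655 and 273 to 1669 TPM, without overlap. Colon markers summed to 351 to 615 and 594 to 878 TPM, and goblet markers to 13966 to 29839 and 18525 to 22922 TPM. Mitochondrial genes took 3.88% to 7.36% of the counts in Pectin and 2.85% to 3.51% in Pectin_PFOS. The part of these in the Ltf difference was not tested. The call was lost without Pectin replicate 2 (adjusted p = 0.0554) and in the limma fits on TPM. In TPM the groups overlapped, since Pectin libraries held 0.79, 0.83, 1.74 and 1.8 TPM and Pectin_PFOS libraries 1.45, 2.25, 2.35 and 2.72 TPM. Pectin replicate 2 had the fewest counts of its group (14) and yet 1.74 TPM. In the 15 libraries with at least 10 Ltf counts, TPM per CPM ranged 6.42-fold, against 1.97-fold for Saa1. Inulin_PFOS was 2.44 ± 0.51 log2 above Inulin without overlap (edgeR, adjusted p = 0.0510). It passed when 1 of 10 libraries outside these groups was left out (Control replicates 2, 3 and 4, PFOS replicates 1, 2 and 4, Pectin replicates 2 and 4, or Pectin_PFOS replicates 1 and 2), with adjusted p between 0.0377 and 0.392 over all libraries left out in turn. Pectin was 1.44 ± 0.44 log2 above Control (edgeR, adjusted p = 0.0890) and PFOS averaged -1.42 ± 0.52 against Control (adjusted p = 0.822).

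The calprotectin genes were barely detected. S100a8 had 10, 7 and 10 counts in the 3 Inulin_PFOS libraries, 4, 8, 9 and 1 in Pectin, and 0 to 3 in each library of the other 4 groups. S100a9 had 8, 2 and 17 counts in Inulin_PFOS, 6, 5, 6 and 7 in Pectin, and 0 to 5 elsewhere. In counts, S100a8 in Inulin_PFOS was thus above every Control, PFOS, Inulin and Pectin_PFOS library, and S100a9 in Pectin was at or above all of those. In CPM, S100a9 in Inulin replicate 2 (0.278) lay above Pectin replicate 2 (0.239). With counts of 0 in 7 libraries for S100a8 and 8 for S100a9, levels below 3 counts per library could not be told from 0. The 4 Pectin_PFOS libraries together held 3 counts of S100a8 and 5 of S100a9, against 27 of each in the 3 Inulin_PFOS libraries. Fitted with no low-count filter, Inulin_PFOS against PFOS gave 3.25 ± 0.94 log2 for S100a8 (edgeR, adjusted p = 0.0881) and 2.95 ± 1.01 for S100a9 (edgeR, adjusted p = 0.159). On the log2(TPM + 1) scale the differences were 1.22 ± 0.27 (limma, adjusted p = 0.0113) and 0.94 ± 0.32 (limma, adjusted p = 0.0452), so the calls differed between these fits. The limma fit called 2627 of 14174 genes in this comparison, and the edgeR fit with no filter 309 of 25457.

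Other neutrophil genes were described beside them. The 22 neutrophil markers summed to 6.09 to 10.55 TPM in Control, 7.53 to 10.33 in PFOS, 7.85 to 14.4 in Inulin, 19.74 to 23.28 in Inulin_PFOS, 9.94 to 43.04 in Pectin and 7.17 to 21.67 in Pectin_PFOS. The highest of them were Lrg1 (4.61 TPM on average), which epithelium also makes, and Ltb4r1 (3.82 TPM). Of the 22 markers, 6 passed the low-count filter, and of these 2 were higher in Inulin_PFOS and 2 in Pectin_PFOS than in PFOS, and 3 in Pectin than in Control, beside 1.84%, 7.7% and 1.03% of all genes called higher. The part of these cells in the Ltf, Lcn2 and S100a levels was not tested.

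**Figure D3:**
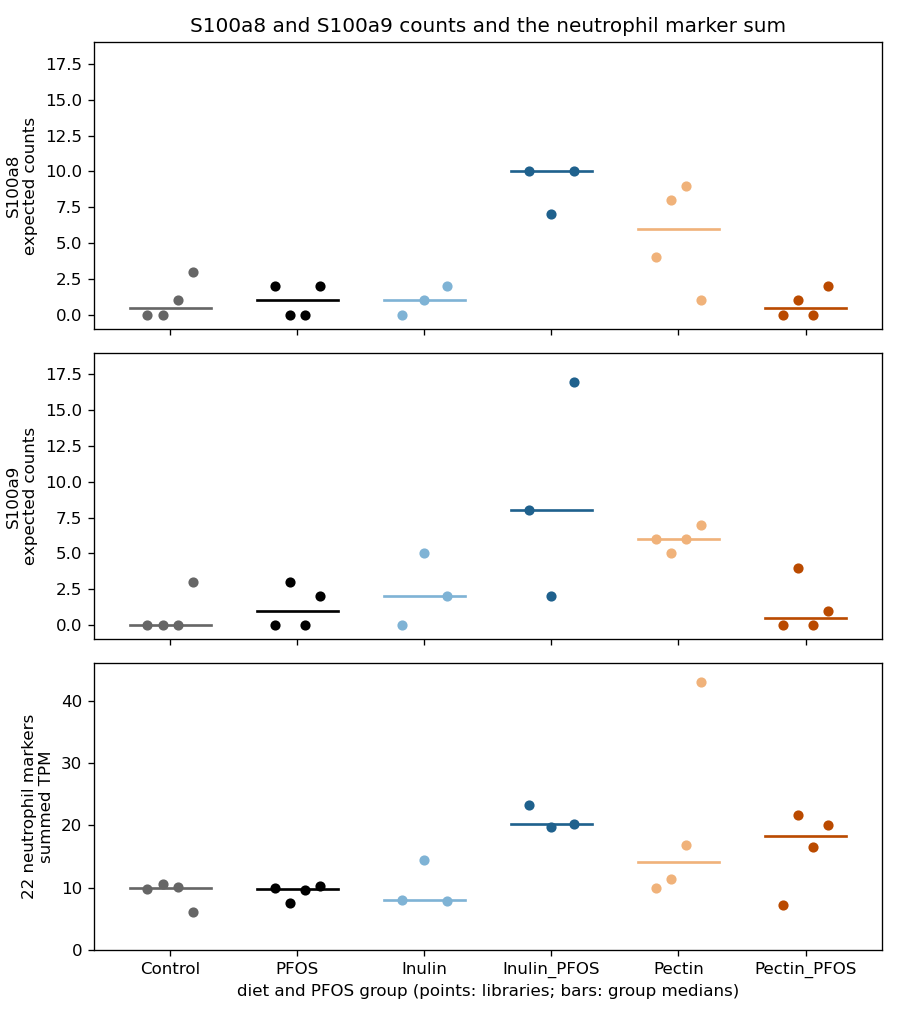
Expected counts of S100a8 and S100a9 and the summed TPM of 22 neutrophil markers in each library, by group; points are libraries and bars are medians. S100a8 reaches 7 to 10 counts in Inulin_PFOS and no more than 9 elsewhere, and the highest marker sum, 43.04 TPM, is a Pectin library.

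Set side by side, the calls of the 5 tested genes lay in 3 comparisons. In Inulin_PFOS against PFOS, 4 of the 5 tested genes (Saa1, Saa2, Saa3 and Ltf) were called higher and the median log2 difference was 5.18, where 2.64% of all genes were called in either direction, 1.84% of them higher, around a median of -0.01. The same 4 were called in Pectin_PFOS against PFOS, with a median of 4.40, where 16% of genes were called, 7.7% higher. In Pectin_PFOS against Pectin 1 of 5 was called, where 20.8% of genes were called and 11.4% were higher. These comparisons share the PFOS or Pectin_PFOS libraries. Saa1 and Saa2 share sequence and the division of reads between them is not known, so their calls do not count as 2 independent genes. The median of 5.18 is the Saa2 value.

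In the other comparisons none of the 5 was called by edgeR. For PFOS against Control the background was also 0% called, 2 of the 5 genes (Saa1 and Ltf) had an unadjusted p under 0.05 as did 5.34% of all genes (842), and neither DESeq2 nor limma called a member. For Inulin against Control 0% of genes were called, and 0 of the 5 had an unadjusted p under 0.05, against 20.7% of all genes (3257). For Pectin against Control 1.99% were called (1.03% higher), and 2 of the 5 had an unadjusted p under 0.05, against 18.3% of all genes (2883). DESeq2 called 2 of the 5 (Saa3 and Ltf) and 864 genes in all, and limma called 0 of the 5. For Inulin_PFOS against Inulin 0.159% were called, and 3 of the 5 had an unadjusted p under 0.05, against 18.8% of all genes (2963). DESeq2 called 2 of the 5 (Saa3 and Ltf) and 519 genes in all, and limma called 0 of the 5, while 4 of the 5 were higher in Inulin_PFOS without overlap of the groups in CPM, as were 12.2% of all genes tested.

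The PFOS effect on a fermentable fibre minus the PFOS effect on cellulose was also estimated. With inulin, Ltf gave 3.86 ± 0.72, Saa3 5.09 ± 1.34, Saa1 5.50 ± 1.78, Saa2 3.77 ± 1.50 and Lcn2 1.66 ± 0.67 log2 (edgeR, adjusted p 0.0984, 0.0984, 0.126, 0.181 and 0.184). All 5 had an unadjusted p under 0.05, as did 19.7% of all genes, 0% were called, and DESeq2 called 3 (Saa1, Saa3 and Ltf) and limma 0. Without Control replicate 1, edgeR called the same 3, and 767 genes in all. With pectin, Ltf gave 2.95 ± 0.66 (edgeR, adjusted p = 0.260), Saa1 3.64 ± 1.58, Saa2 2.59 ± 1.40 and Saa3 2.00 ± 1.22. There 0% of genes were called, 2 of the 5 (Saa1 and Ltf) had an unadjusted p under 0.05 against 12.4% of all genes, and no member was called by DESeq2 or limma. Averaged over the 3 diets, PFOS changed none of the 5 by edgeR, DESeq2 or limma, where 0.159% of genes were called by edgeR and 1 of the 5 (Ltf) had an unadjusted p under 0.05, as did 14.9% of all genes (2349).

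**Figure D4:**
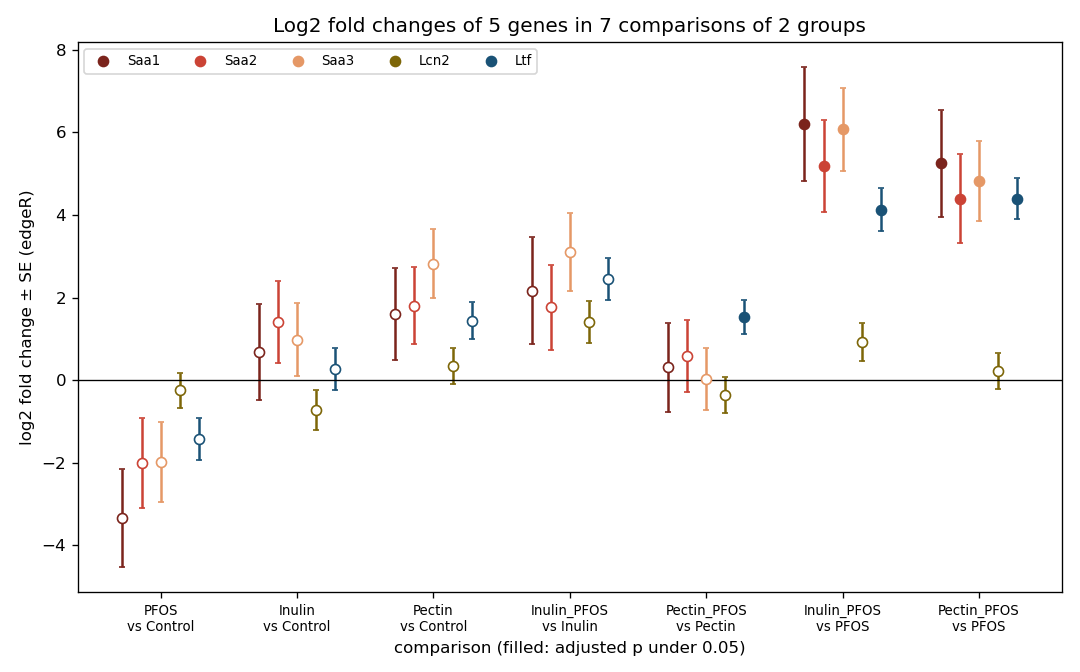
Log2 fold changes with standard errors from edgeR for Saa1, Saa2, Saa3, Lcn2 and Ltf in the 7 comparisons of 2 groups; filled points have an adjusted p under 0.05. The filled points are Saa1, Saa2, Saa3 and Ltf in both comparisons of a fermentable fibre with cellulose under PFOS, at 4.13 to 6.19, and Ltf in Pectin_PFOS against Pectin, at 1.53.

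The genes fell into levels that moved together to different degrees. Over the 22 libraries, which share diet and PFOS group, the Pearson correlation of log2 CPM with Saa1 was 0.99 for Saa2, 0.92 for Saa3, 0.79 for Ltf and 0.24 for Lcn2. Taken as deviations from the group means, it was 0.98 for Saa2, 0.78 for Saa3, 0.19 for Ltf and -0.01 for Lcn2. Ltf thus shared the group levels of Saa1 more than the differences between replicates within a group. These are descriptions across libraries, and Saa2 shares sequence with Saa1.

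Likeness to other genes was ranked by Spearman correlation over the 22 libraries, with the members and predicted models left out. Among members, Saa1 correlated at 0.988 with Saa2 and 0.938 with Saa3. The 3 other genes most like Saa1 were Bcl2l15 (0.955), B3galt5 (0.949) and Fut2 (0.942), and Saa2 had the same 3 with B3galt5 first (0.955). B3galt5 encodes a galactosyltransferase and Fut2 the fucosyltransferase that decorates the gut surface with fucose. B3galt5 averaged 2.22 CPM in PFOS, 7.16 in Control, 21.2 in Inulin, 51.9 in Pectin_PFOS, 66.9 in Pectin and 131 in Inulin_PFOS, and Fut2 averaged 2.93, 5.42, 20.4, 53.8, 31.2 and 66.2 CPM in the same groups. Saa3 was most like Tac1 (0.960), the precursor of substance P, then B3galt5 (0.948) and Gmds (0.934), an enzyme of GDP-fucose synthesis. Ltf was most like Pigr (0.916), the receptor that carries IgA across the epithelium, then Dbnl and Cblc (0.907 each). Lcn2 was less like any gene, with Eml2 at 0.780, Mmp9 at 0.771 and Bysl at 0.762.

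Epithelial genes known to respond to interleukin 22 moved in the same comparisons. Of all genes, 1.84% were called higher in Inulin_PFOS and 7.7% in Pectin_PFOS than in PFOS, around medians of -0.01 and -0.03. Of 13 genes of the list tested, 11 were higher in Inulin_PFOS than in PFOS (median 3.26 log2 over the list) and 11 in Pectin_PFOS than in PFOS (median 3.20), and none was lower. The first by p were Duox2, the epithelial peroxide-forming oxidase, at 57.3 ± 30.3 CPM in PFOS (SD, n = 4) and 550.2 ± 111 in Inulin_PFOS (SD, n = 3), a log2 difference of 3.26 ± 0.49 (edgeR, adjusted p = 0.00257), Reg3a, an antimicrobial lectin (2.30 ± 0.38, adjusted p = 0.00430), and Pigr (2.77 ± 0.47, adjusted p = 0.00482). In Pectin_PFOS they were Pigr (3.35 ± 0.46, edgeR, adjusted p = 0.000631), Nos2, the inducible nitric oxide synthase (4.13 ± 0.58, adjusted p = 0.000640), and Duox2 (3.35 ± 0.48, adjusted p = 0.000640). The Inulin_PFOS count was 7 to 12 over the libraries left out in turn, lowest without PFOS replicate 2 or Inulin_PFOS replicate 1, and the Pectin_PFOS count 10 to 11. Without PFOS, 5 of 13 were higher in Pectin than in Control (0 to 9 when a library was left out), beside 1.03% of all genes. They were led by Duoxa2 (3.63 ± 0.70, edgeR, adjusted p = 0.0191), which was lost without Pectin replicate 3 (adjusted p = 0.0551). Nos2 was the 1 gene of the list higher in Pectin_PFOS than in Pectin (2.24 ± 0.54, edgeR, adjusted p = 0.0102), beside 11.4% of all genes.

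Of 15 transcription factors and feedback genes upstream of the 7 genes, 2 were higher in Inulin_PFOS than in PFOS, beside 1.84% of all genes. In Pectin_PFOS 8 were higher and 1 lower, beside 16% of all genes called and 7.7% called higher. The 8 became as few as 3 over the settings that kept all libraries, with library totals as the only scaling and in the limma fits on TPM. Nfkbiz, a cofactor of NF-kB needed for many secondary response genes, was at 24.0 ± 8.2 CPM in PFOS (SD, n = 4), 83.1 ± 8.1 in Inulin_PFOS (SD, n = 3) and 66.6 ± 22.4 in Pectin_PFOS (SD, n = 4), log2 differences of 1.79 ± 0.33 (edgeR, adjusted p = 0.00715) and 1.47 ± 0.31 (adjusted p = 0.00537). Zc3h12a, an RNase that limits cytokine messages, was 1.78 ± 0.32 (edgeR, adjusted p = 0.00630) and 2.00 ± 0.31 (adjusted p = 0.000888) above PFOS, and Nfkb2 rose by 1.05 ± 0.17 in Pectin_PFOS (adjusted p = 0.00120). The Zc3h12a and Nfkbiz calls held with each library left out, and the Nfkb2 call was lost in the limma fits on TPM (adjusted p up to 0.0587). In Pectin_PFOS against Pectin 6 were higher (1 to 7 when a library was left out) and 1 lower, beside 20.8% of all genes called. Nfkb2 was first by p there (1.09 ± 0.17, edgeR, adjusted p = 0.00216), and that call held with each library left out.

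Cytokines and receptors upstream of the 7 genes had list medians of -0.22 log2 in Inulin_PFOS and 0.14 in Pectin_PFOS against PFOS. Of 15 tested of 23, 1 was higher in Inulin_PFOS than in PFOS, beside 1.84% of all genes called higher. It was Il1rn, the interleukin 1 receptor antagonist (1.30 ± 0.32 log2, edgeR, adjusted p = 0.0308). That call was lost without any of PFOS replicates 1, 2 and 3 or any Inulin_PFOS replicate. In Pectin_PFOS 4 were lower than in PFOS and none higher, where 1313 of all 15763 genes were called lower and 7.7% higher. Among the 4 were the receptor genes Osmr (-1.64 ± 0.38, edgeR, adjusted p = 0.00809), Il6ra (-1.19 ± 0.29, adjusted p = 0.0105) and Il1r1 (-1.37 ± 0.36, adjusted p = 0.0167). Fibroblast and muscle markers summed to 1257 to 1801 TPM in PFOS and 321 to 852 TPM in Pectin_PFOS, with 3 of 9 called lower, 0 higher and a median of -1.10 log2. Their part in these differences was not tested. In Pectin_PFOS against Pectin 4 of the 15 were higher and 2 lower, beside 20.8% of all genes called. Il17ra was first by p (1.26 ± 0.22, edgeR, adjusted p = 0.00286), and its call held with each library left out. In Pectin against Control Il1b was higher (2.52 ± 0.57, edgeR, adjusted p = 0.0312) and Il17ra lower (-1.01 ± 0.22, adjusted p = 0.0299), beside 1.99% of all genes. Both of these calls were lost without Control replicate 1, among others. Of 22 other acute phase proteins 11 were tested. Beside 2.64% of all genes called, 1 was higher in Inulin_PFOS than in PFOS (Lbp, the lipopolysaccharide binding protein, 1.35 ± 0.34, edgeR, adjusted p = 0.0369, lost without any single PFOS or Inulin_PFOS library) and beside 16% of all genes 1 was lower in Pectin_PFOS (Serping1, the C1 inhibitor, -0.91 ± 0.28, edgeR, adjusted p = 0.0305, lost without PFOS replicate 2 or Pectin_PFOS replicates 1, 2 or 4). In Pectin_PFOS against Pectin 4 of the 11 were called, beside 20.8% of all genes: Cfb, complement factor B, was higher (0.94 ± 0.23, edgeR, adjusted p = 0.0101), and 3 were lower, among them Serping1 (-1.17 ± 0.28, adjusted p = 0.00905) and Cp, ceruloplasmin (-1.67 ± 0.44, adjusted p = 0.0151). The lower count was 1 without Pectin_PFOS replicate 1, and it was 0 to 5 over the settings that kept all libraries.

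Iron handling genes were called at about the share of all genes. Of 14, none was called in Inulin_PFOS against PFOS, 3 were in Pectin_PFOS against Pectin (2 higher, 1 lower, beside 20.8% of all genes) and 2 were higher in Pectin_PFOS than in PFOS (beside 16% of all genes called): Slc11a2, the apical iron importer, by 1.28 ± 0.26 log2 (edgeR, adjusted p = 0.00410), and Heph, the ferroxidase of iron export, by 0.79 ± 0.22 (adjusted p = 0.0201). The Heph call was lost without PFOS replicate 3 or Pectin_PFOS replicate 1, and both were lost in the limma fits on TPM, Heph also with library totals as the only scaling. Of 11 tested genes named after S100 proteins, S100pbp, which encodes a binding partner, among them, S100a16 was higher in Inulin_PFOS than in PFOS (1.13 ± 0.23, edgeR, adjusted p = 0.0133, lost without PFOS replicate 2 or Inulin_PFOS replicates 1 or 3, and in the limma fits on TPM) and S100a6 lower in Pectin_PFOS (-1.18 ± 0.29, edgeR, adjusted p = 0.0118). Of 12 receptors and partners of these proteins tested, none was called in Inulin_PFOS against PFOS, and in Pectin_PFOS Myd88, the adaptor of Toll-like receptors, was 0.67 ± 0.16 higher (edgeR, adjusted p = 0.0107; lost in the limma fits on TPM and with library totals as the only scaling, adjusted p up to 0.499). The call of Slc22a17, a lipocalin 2 receptor, at -1.07 ± 0.36 (edgeR, adjusted p = 0.0487), was lost in 15 of the 22 fits that left out a library. For the S100 and receptor lists the background was 2.64% of all genes called in Inulin_PFOS against PFOS and 16% in Pectin_PFOS against PFOS. In Pectin_PFOS against Pectin, 2 of the 12 receptors and partners were higher and 3 lower, beside 20.8% of all genes called. The first by p was Itln1, also on the Paneth marker list (-1.85 ± 0.44, edgeR, adjusted p = 0.00982), whose call held with each library left out. Of the 11 S100 genes 1 was higher and 4 were lower there.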

How the data were processed

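Total RNA of intestinal tissue was taken up in RNAlater, extracted on columns and made into stranded DNBSEQ libraries, per the labels' protocols. The authors deposited an expected count and a TPM value per gene and library. HISAT, Bowtie2 and GRCm39 are listed, with no version or role, per the submitters' processing notes, but 38946 of 46091 genes shared with GENCODE M21 have identical GRCm38 coordinates, so coordinates are given on GRCm38. How reads were counted and divided between similar genes is not given in the sources used here.

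Expected counts were rounded and tested with edgeR 4.0.16 (R 4.3.3): TMM scaling, default expression filter, robust quasi-likelihood F test, 1 model of 6 group means, Benjamini-Hochberg adjustment over 15763 genes, two-sided, called at an adjusted p under 0.05, 10 comparisons. A standard error is the absolute log2 difference divided by the square root of F. CPM is the rounded count divided by the TMM-scaled library size. Alternatives used DESeq2 1.42.0 and limma 3.58.1 on log2(TPM + 1) or log2(TPM + 0.1). The scripts were tested on simulated counts. The members and all 18 gene lists (7 of pathways, 11 of cell type or tissue markers, 219 of 220 entries found) were chosen with earlier results of these data known. The text names all members, up to 3 called genes per pathway list and comparison by p (given for the comparisons with PFOS, and elsewhere where a line of the text turns on them), the 3 genes most like each tested member (members and predicted models left out) and the leading markers of a list. Promoter sequences are from RefSeq (GRCm38.p6), coding sequences from GENCODE M21.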

Additional observations from a re-analysis of the deposited data

Results flagged for a closer look

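Of 20 sets of 4 libraries examined (5 genes in 4 groups), 1 held a library far from the others: Ltf in Pectin replicate 2 was the lowest of its group at -0.37 log2 CPM (prior count 2), and the gap to its nearest neighbour was 0.925 of the group's range, above Dixon's 95% critical value for 4 libraries. About 1 in 20 such sets is expected to pass by chance. In TPM the same library was not the lowest of its group.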

How the results depend on the processing

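The calls of Saa1, Saa2, Saa3 and Ltf in Pectin_PFOS against PFOS, and of Saa3 and Ltf in Inulin_PFOS against PFOS, passed in every alternative that fitted them. The number of the 7 genes called changed by over 1.5 times as follows. DESeq2 called 2 in Pectin against Control, 2 in Inulin_PFOS against Inulin and 3 for the PFOS by inulin interaction, where edgeR called 0. Without the low-count filter 1 was called in Inulin_PFOS against Inulin (Ltf). The 3 limma fits on log2 TPM (pseudocounts of 1 and 0.1, and 1 with no filter) each called 0 in Pectin_PFOS against Pectin, where edgeR called 1. When 1 library was left out, the count was 0 to 1 in Pectin against Control, 0 to 1 in Inulin_PFOS against Inulin, 0 to 1 in Pectin_PFOS against Pectin, 2 to 4 in Inulin_PFOS against PFOS and 0 to 3 for the PFOS by inulin interaction. The cause was not tested. In Inulin_PFOS against PFOS, edgeR without the low-count filter called 3 (Saa1 was lost), and limma called 6 at a pseudocount of 1 (S100a8 and S100a9 added), 5 at 0.1 and 5 with no filter (S100a8 added). Of all genes these fits called, in that order, 309 of 25457, 2627 of 14174, 2336 of 14174 and 2422 of 25590. The main fit called 416 of 15763.

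The difference of Saa3 between Pectin_PFOS and Pectin, 0.02 log2, turned to -0.15 with library totals as the only scaling, -0.36 with the replicate block, -0.13 with limma at a pseudocount of 1 with or without a filter and -0.15 at 0.1, and lay between -1.11 and 0.37 when 1 library was left out, with -0.26 without Pectin replicate 2, -0.01 without Pectin replicate 3 and -1.11 without Pectin_PFOS replicate 2. The inulin difference without PFOS lay between -1.39 and 1.98 for Saa1, -0.91 and 2.21 for Saa2 and -0.996 and 2.25 for Saa3, below 0 in each without Inulin replicate 2. Replicate numbers did not pair the samples: 51 pairs of libraries with the same number correlated at -0.27 to 0.51, 14 of them above 0.1, and 5 of 22 libraries correlated best with their own number. The other number in the titles, which skips some values, gave 43 pairs at -0.27 to 0.51, 10 of them above 0.1. With the replicate block no call of the 7 genes changed, with 342 genes called in Inulin_PFOS against PFOS and 2985 in Pectin_PFOS against PFOS.

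The counts over all genes moved more. Pectin against Control gave 313 calls, 51 without Pectin replicate 3 and 27 to 864 over the other settings. Inulin_PFOS against PFOS gave 416, 73 without PFOS replicate 2 and 309 to 2627. Pectin_PFOS against PFOS gave 2526, 1265 without PFOS replicate 3 and 1881 to 3829. Pectin_PFOS against Pectin gave 3277, 1360 without Pectin_PFOS replicate 1 and 729 to 4053. Inulin_PFOS against Inulin gave 25, 2 to 147 when a library was left out and 0 to 519 otherwise. The average over diets gave 25, 8 to 42 and 6 to 207. Where edgeR called 0, Inulin against Control reached 794 without Control replicate 1 and 790 with DESeq2, the inulin interaction 767 and 654. The pectin interaction reached 4 without Control replicate 4 and 119 with DESeq2, and PFOS against Control reached 8, with limma at a pseudocount of 1 and no filter. The low counts of Ltf, Lcn2, S100a8 and S100a9 limit what could be detected. In the PFOS libraries Saa2 held 0 to 15 counts and Saa3 3 to 9, so the sizes of their differences from PFOS are uncertain.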
